A study of Mus musculus with 6 samples.

Results

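The peaks described here were H3K27ac peaks that lay at promoters of LPS-treated macrophages and had no H3K4me1 peak over them. They were taken from the H3K27ac peak list of the LPS library by 2 conditions. A peak had to overlap the 1000 bp on either side of the transcription start site (TSS) of an annotated gene, and it had to share no base with any H3K4me1 peak, whether that peak was called under LPS or under PBS. Of 4200 LPS H3K27ac peaks, 1241 overlapped a promoter window, and 966 of these (77.8%, 95% interval 75.4 to 80.1%) met both conditions. The remaining 275 promoter peaks, which shared sequence with H3K4me1, served for comparison, together with 1582 distal peaks without H3K4me1 and 1377 distal peaks with it.

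The study profiled bone marrow-derived macrophages (BMDMs) of male C57BL/6 mice by CUT&RUN, a method in which an antibody directs a nuclease to chromatin and the released fragments are sequenced. Bone marrow cells were differentiated in L929-conditioned medium and then treated for 1 h with LPS, a component of the bacterial outer membrane, or with PBS as the vehicle. Each treatment had 1 H3K4me1, 1 H3K27ac and 1 control IgG library, and the 4 libraries with an antibody to a histone mark were analysed. With 1 library for each treatment and antibody there is no replicate error and no test, and the intervals given cover counting error only. All groups were wild-type primary cells from culture, so fewer cells carrying a mark and less of the mark in each cell cannot be told apart. H3K4me1 at marker genes went with the labelled cell type. Of 35 genes chosen for macrophage identity, 20 (57.1%) had an LPS H3K4me1 peak and 18 (51.4%) a PBS H3K4me1 peak within 1000 bp of the TSS, against 2 of 30 genes of other tissues in either list.

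H3K27ac is deposited by the acetyltransferases CBP and p300 and marks both active promoters and active enhancers. H3K4me1 is placed mainly by the methyltransferases MLL3 and MLL4 and is abundant at enhancers, whereas active promoters usually carry H3K4me3 around the start site with H3K4me1 to its sides. Many promoters, above all those of housekeeping genes, lie in CpG islands, stretches in which CpG dinucleotides have been kept. In macrophages the factor PU.1 opens many enhancers, and LPS signals through TLR4 to NF-kB, AP-1 and the interferon regulatory factors. H3K4me3 was not measured in these libraries.

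Sequences from the strongest of these peaks show the 2 kinds of DNA they covered. Each stretch spans 101 bp of GRCm38, is centred on the summit, is read 5′ to 3′ along the strand of the nearest gene, and was chosen by rank among peaks where the stretch met no annotated exon. Capitals mark CpG dinucleotides. The first set comes from peaks called CpG-rich, meaning that the 401 bp around the summit had a GC content of at least 50% and an observed to expected CpG ratio of at least 0.6.
Fam227a (chr15:79658994-79659094, minus strand): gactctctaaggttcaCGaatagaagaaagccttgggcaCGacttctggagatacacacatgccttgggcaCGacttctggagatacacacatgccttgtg
Ptcd3 (chr6:71908815-71908915, minus strand): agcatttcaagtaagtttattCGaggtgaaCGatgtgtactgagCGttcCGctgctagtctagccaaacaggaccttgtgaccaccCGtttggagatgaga
Rab28 (chr5:41708310-41708410, minus strand): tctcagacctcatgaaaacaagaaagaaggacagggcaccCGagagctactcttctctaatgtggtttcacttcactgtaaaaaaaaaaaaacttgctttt
1700113A16Rik (chr3:88177900-88178000, minus strand): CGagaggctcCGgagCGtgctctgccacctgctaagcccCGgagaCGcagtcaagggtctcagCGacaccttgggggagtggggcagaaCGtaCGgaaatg
These 4 stretches held 3, 5, 1 and 8 CpGs. The single CpG at Rab28, which encodes a small GTPase, shows that the CpGs counted over 401 bp need not lie under the summit itself.

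The second set comes from peaks that did not meet the CpG-rich limits, treated in the same way.
Asna1 (chr8:85025383-85025483, minus strand): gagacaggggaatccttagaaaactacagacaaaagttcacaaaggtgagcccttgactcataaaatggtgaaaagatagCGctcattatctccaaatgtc
Casp4 (chr9:5308956-5309056, plus strand): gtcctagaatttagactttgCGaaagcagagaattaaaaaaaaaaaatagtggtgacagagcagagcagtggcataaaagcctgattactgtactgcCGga
Mx2 (chr16:97536197-97536297, plus strand): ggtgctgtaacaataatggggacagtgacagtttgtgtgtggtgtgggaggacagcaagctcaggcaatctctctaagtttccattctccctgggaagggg
Ifitm3 (chr7:141009963-141010063, minus strand): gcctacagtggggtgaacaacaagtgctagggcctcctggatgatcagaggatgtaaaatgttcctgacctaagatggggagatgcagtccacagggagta
The stretches at Asna1, Casp4, Mx2 and Ifitm3 held 1, 2, 0 and 0 CpGs. Asna1 sat at the limit, with a CpG ratio of 0.5997 against 0.6 and a GC content of 50.6%. The Asna1 stretch contains the letters TGACTCA, which match the AP-1 word described below.

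The called peaks were narrow and rested on few fragments. Their median width was 160 bp (95% interval 157 to 164 bp) and their range 118 to 1136 bp, with 80% between 126 and 348.5 bp. The smallest width, 118 bp, was the same in the other classes of peaks and equals the fragment length taken for this library. With so few fragments, the width of a called peak does not give the extent of acetylation. The fold enrichment, as the peak caller gives it, compares the fragments over the summit with the local control. A constant is added to both before the ratio is taken, so it is smaller than the plain ratio, most of all at low control levels. The fold enrichment had a median of 5.49 (5.47 to 5.62) and ranged from 3.26 to 14.4. The number of H3K27ac fragments at the summit, recovered from the peak caller's values, had a median of 11 and ranged from 5 to 38. A count of 11 has an exact Poisson interval of 5.49 to 19.7, so the order of most peaks by strength is not resolved at this depth. The depth was estimated at about 5660000 fragments. Promoter peaks with H3K4me1 had closely similar medians, of 162 bp in width, 5.64 in fold enrichment and 11 fragments. Distal peaks without H3K4me1 had lower values, with 138 bp, 5.16 and 7 fragments.

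The control level differed between promoters and distal sites more than the fold enrichment did, which includes the added constant. This level is the one implied by the deposited fold enrichment and p-value, and whether the peak caller took it from the IgG library or from the H3K27ac library itself is not given in the sources used here. Its median was 1.01 fragments at the 966 peaks, 1.00 at promoter peaks with H3K4me1, 0.428 at distal peaks without it and 0.612 at distal peaks with it. A higher control level requires more H3K27ac fragments for the same fold enrichment, and its part in the composition of the list was not tested. A −log10 q of at least 5 was reached by 317 of the 966 peaks (32.8%, 29.9 to 35.8%), by 113 of the 275 promoter peaks with H3K4me1 (41.1%, 35.4 to 47.0%) and by 15.1% of distal peaks without it. When all 1241 promoter peaks were split by −log10 q into 10 bins of 124 or 125 peaks, the share without H3K4me1 lay between 70.2% and 86.3% in each. It was 81.6% in the weakest bin and 70.2% in the strongest. Among the 100 strongest peaks of the whole list, 35 were promoter peaks without H3K4me1.

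**Figure D1:**
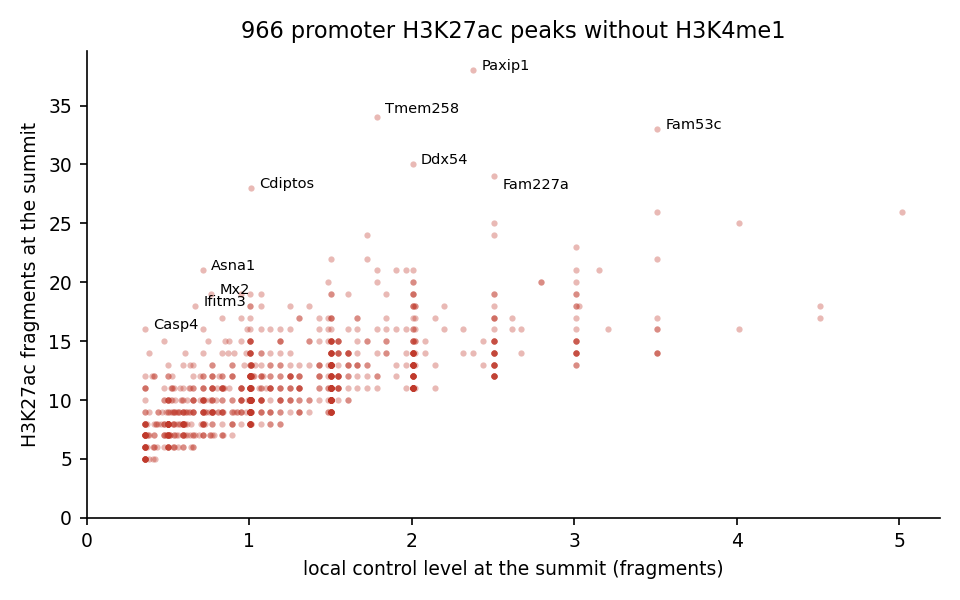
Each point is 1 of the 966 promoter H3K27ac peaks without H3K4me1, with the local control level at the summit on the x axis and the H3K27ac fragments at the summit on the y axis, both in fragments. The 10 peaks with the highest −log10 q are named, and Paxip1 has the most fragments, 38, over a control level of 2.38, whereas Casp4 has 16 over 0.357.

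The 10 strongest peaks were at genes of different kinds. The highest −log10 q, 25.1, was at Paxip1 (chr5:27791485-27791635), whose product PTIP associates with the MLL3 and MLL4 methyltransferases. Its summit had 38 fragments (exact Poisson interval 26.9 to 52.2) over a control level of 2.38 and lay 164 bp downstream of the TSS in an untranslated exon. Tmem258 (chr19:10203979-10204143), which encodes a subunit of the oligosaccharyltransferase complex, followed with 34 fragments (23.5 to 47.5), a fold enrichment of 12.6 and a summit 35 bp downstream of the TSS. These counting intervals overlap, so the order of the leading peaks is not resolved.

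Cdiptos, the gene antisense to the phosphatidylinositol synthase gene Cdipt, had the highest fold enrichment of the 966 peaks, 14.4, with 28 fragments at chr7:126976159-126976350. Ddx54, a DEAD box RNA helicase, had 30 fragments and a fold enrichment of 10.3 at chr5:120612686-120612845. Its summit lay 8 bp from the TSS, and the divergent gene Rita1 starts 150 bp away. Asna1, the ATPase that delivers tail-anchored proteins to the endoplasmic reticulum, had 21 fragments and a fold enrichment of 12.8 at chr8:85025319-85025478.

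Of the next 5 peaks, 3 were at immune genes. Casp4 encodes the inflammatory caspase that binds cytosolic LPS. Its peak (chr9:5308833-5309129) had 16 fragments over a control level of 0.357, and the fold enrichment, with the added constant, was 12.5. Mx2, an interferon-induced dynamin-like GTPase annotated as a polymorphic pseudogene in this build, had a fold enrichment of 11.3 with its summit 939 bp downstream of the TSS. Ifitm3, an interferon-induced membrane protein that restricts virus entry, had a fold enrichment of 11.4 with its summit 757 bp downstream. The sequences of these 3 peaks are in the second set above, since none of them was CpG-rich. Fam227a, where the divergent gene Cby1 starts 243 bp away, and Fam53c completed the 10 strongest with 29 and 33 fragments.

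The widest peaks were at other genes than the strongest. A peak of 1136 bp at Tnfrsf1a, the gene of TNF receptor 1, spanned chr6:125350011-125351146 with a fold enrichment of 9.82. It was followed by peaks of 848 bp at Rbm5, a regulator of splicing, 707 bp at Cltc, the clathrin heavy chain, 699 bp at Tnrc18 and 684 bp at Rilpl2. These widths stand against the 348.5 bp that 90% of the peaks did not exceed.

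Summits lay downstream of the start site more often than upstream of it. Relative to the nearest TSS the median summit was at +168 bp (140 to 194 bp) in the direction of transcription, and 646 of 966 summits (66.9%, 63.8 to 69.8%) were downstream. For promoter peaks with H3K4me1 the median was +48 bp (−24 to 84 bp) and the share downstream 54.2% (48.3 to 59.97%), so neither interval overlapped that of the peaks without H3K4me1. The interval from 500 to 1000 bp downstream held 230 summits (23.8%, 21.2 to 26.6%), against 28 of 275 (10.2%, 7.14 to 14.3%) with H3K4me1. The rule did not use the side of the TSS, but it removed peaks wherever H3K4me1 lay, so the position of H3K4me1 around promoters enters this difference. The interval from 100 to 200 bp downstream held 134 summits (13.9%, 11.8 to 16.2%), and the 100 bp upstream of the TSS held 40 (4.14%, 3.06 to 5.59%).

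**Figure D2:**
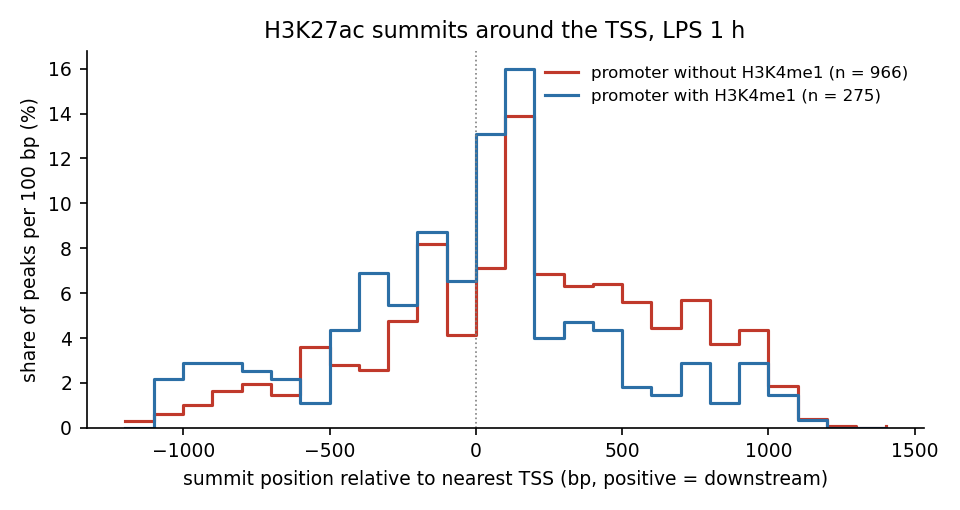
The x axis gives the position of the H3K27ac summit relative to the nearest TSS in bp, positive downstream, and the y axis the share of peaks in each 100 bp in percent, for the 966 promoter peaks without H3K4me1 and the 275 with it. Both lines peak between 100 and 200 bp downstream, at 13.9% and 16.0%, and the peaks without H3K4me1 hold the larger share from 500 to 1000 bp downstream, 23.8% against 10.2%.

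The kind of gene went with the position. A protein-coding gene was nearest for 807 of the peaks (83.5%), with a median summit at +194 bp (166 to 223 bp) and 70.8% (67.5 to 73.8%) downstream. For the 159 peaks nearest to another kind of gene the median was −31 bp (−143 to 89 bp) and 47.2% were downstream. Antisense transcripts were nearest to 52 peaks and long intergenic RNAs to 24. Among promoter peaks with H3K4me1 a protein-coding gene was nearest for 189 of 275 (68.7%, 63.0 to 73.9%), a lower share.

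Many summits lay in the first part of the gene body. An intron held 391 of them (40.5%), an untranslated exon 192 (19.9%), a coding exon 82 (8.49%), an exon of a non-coding transcript 105 (10.9%), and 196 (20.3%) were intergenic. A divergent gene started within 1000 bp upstream of the nearest TSS for 125 peaks (12.9%, 10.97 to 15.2%), and the median distance between both starts was 162 bp. In 22 of these the summit lay between both starts.

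The 966 peaks belonged to 875 nearest genes, of which 84 had more than 1 peak. At 35 of these the peaks lay on both sides of the TSS, and the median span between summits was 675.5 bp. Dhx58, which encodes the cytosolic RNA sensor LGP2, had the most, 4 peaks with summits at −282, +167, +661 and +1019 bp. Their fold enrichments were 6.43, 4.74, 5.76 and 7.11. Grn, which encodes the lysosomal protein progranulin, had 3 peaks.

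The DNA under the summits was richer in GC than that of distal peaks but not than protein-coding promoters in general, and CpG content divided the peaks. Median GC content over 401 bp was 56.4% (55.6 to 56.9%) and the median observed to expected CpG ratio 0.634 (0.609 to 0.660). The values at promoter peaks with H3K4me1 were 54.4% (52.6 to 56.6%) and 0.468 (0.340 to 0.558), and at distal peaks without it 43.6% and 0.177. Of the 966 peaks, 474 (49.1%, 45.9 to 52.2%) were CpG-rich, against 106 of 275 (38.5%, 33.0 to 44.4%) with H3K4me1, 2.78% of distal peaks without it and 1.02% of distal peaks with it. The share among all protein-coding promoters, measured in a window of equal length centred 168 bp downstream of the TSS, was 49.5% (48.9 to 50.2%). In that window the median GC content of all protein-coding promoters was 58.9% (58.6 to 59.1%) and the median CpG ratio 0.610 (0.601 to 0.620). The summits of the 966 peaks were spread over a wider range of positions than this fixed window, so these values are not matched for position.

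Position and composition were linked, and the difference between both kinds of promoter peak was also seen at like positions near the TSS. With the summit at most 250 bp from the TSS, 269 of 381 peaks without H3K4me1 (70.6%, 65.8 to 74.95%) and 75 of 137 with it (54.7%, 46.4 to 62.8%) were CpG-rich. Between 250 and 500 bp the shares were 51.5% (45.1 to 57.9%) and 31.3% (21.5 to 43.2%). Beyond 500 bp they were 24.4% (20.3 to 29.2%) and 14.1% (7.83 to 24.0%), where the intervals overlap. The 474 CpG-rich peaks had a median summit at +128 bp and 12 fragments, and the 492 others had +304.5 bp and 10 fragments. The fold enrichments, 5.43 and 5.64, were close.

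**Figure D3:**
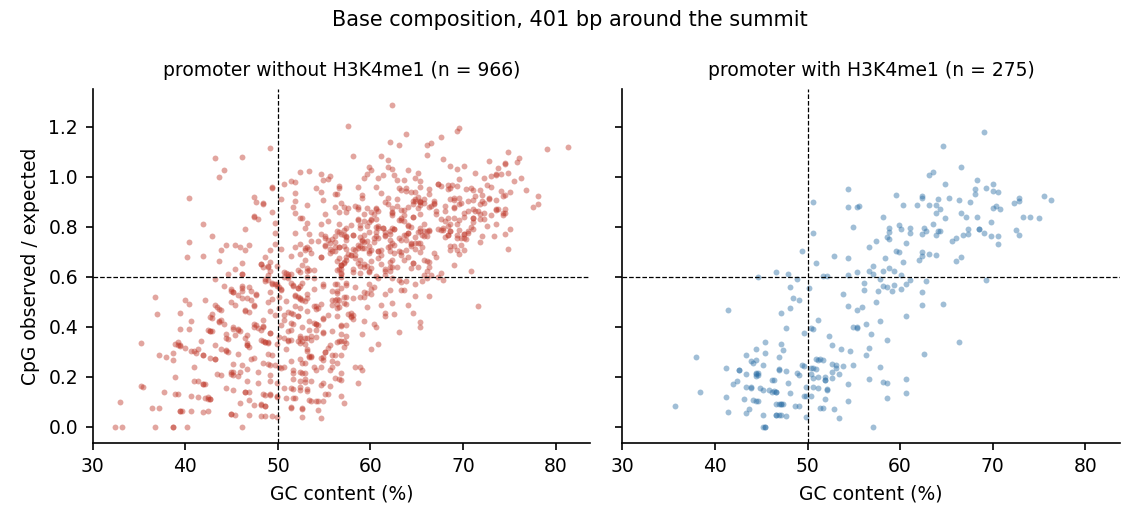
Each point is 1 promoter H3K27ac peak, with the GC content in percent on the x axis and the observed to expected CpG ratio on the y axis, both over 401 bp around the summit, for the 966 peaks without H3K4me1 (left) and the 275 with it (right). Dashed lines mark the limits of 50% and 0.6, and the upper right area holds 49.1% of the peaks on the left and 38.5% of those on the right.

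Short sequence words bound by known factors were counted in the same 401 bp on both strands. A match is a description of the letters and not a binding site. The YY1 word, AAGATGGCG, was found in 48 of the 966 peaks (4.97%, 3.77 to 6.53%), against 4 of 275 (1.45%, 0.567 to 3.68%) with H3K4me1, 0 of 1377 distal peaks with H3K4me1 (upper limit 0.278%) and 2.53% (2.33 to 2.74%) of all protein-coding promoters. YY1 is a zinc finger factor that binds close to many start sites. The words lay at a median of 48 bp downstream of the TSS, and 22 of the 48 were between 50 bp upstream and 100 bp downstream of it. The ISRE word, GAAANNGAAA, which interferon regulatory factors and STAT complexes recognise, was found in 66 peaks (6.83%, 5.41 to 8.60%), in 6.18% (3.90 to 9.68%) of promoter peaks with H3K4me1 and in 3.72% (3.47 to 3.97%) of all protein-coding promoters. Distal peaks had it at 7.46% without H3K4me1 and 8.35% with it, so its share was not particular to the 966 peaks.

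Stretches of 41 bp around the YY1 word, from the 4 strongest peaks in which the stretch met no exon, show its letters in capitals on the strand of the gene.
5031425E22Rik (chr5:23434317-23434357, minus strand): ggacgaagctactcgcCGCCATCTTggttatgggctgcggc
Ptma (chr1:86525683-86525723, plus strand): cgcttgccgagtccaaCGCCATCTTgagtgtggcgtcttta
Mki67 (chr7:135715428-135715468, minus strand): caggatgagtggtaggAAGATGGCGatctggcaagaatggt
Usf1 (chr1:171410986-171411026, plus strand): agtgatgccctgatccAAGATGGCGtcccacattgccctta
Ptma encodes prothymosin alpha, Mki67 the proliferation antigen Ki-67 and Usf1 an E-box binding factor. The word reads forward at Mki67 and Usf1 and in reverse at 5031425E22Rik and Ptma.

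Stretches around the ISRE word were chosen in the same way.
Tpcn2 (chr7:145283511-145283551, minus strand): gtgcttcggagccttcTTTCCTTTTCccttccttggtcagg
Upf2 (chr2:5951330-5951370, plus strand): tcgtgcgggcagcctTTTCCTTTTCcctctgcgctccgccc
Grn (chr11:102431362-102431402, plus strand): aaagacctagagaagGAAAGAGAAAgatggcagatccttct
Herc6 (chr6:57581427-57581467, plus strand): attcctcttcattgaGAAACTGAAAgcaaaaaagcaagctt
Tpcn2 encodes a lysosomal ion channel, Upf2 a factor of nonsense-mediated decay and Herc6 an interferon-induced E3 ligase for ISG15 in the mouse. The word was 4 bp from the summit at Grn and 165 bp from it at Herc6.

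The AP-1 and PU.1 words were less frequent at promoter peaks without H3K4me1 than at those with it. The AP-1 word, TGANTCA, was found in 75 of the 966 peaks (7.76%, 6.24 to 9.62%), against 39 of 275 (14.2%, 10.6 to 18.8%) with H3K4me1, 13.5% of distal peaks without it, 21.1% of distal peaks with it and 6.30% of all protein-coding promoters. The PU.1 word, GAGGAAGT, was found in 35 (3.62%, 2.62 to 5.00%), against 8.0% (5.34 to 11.8%) of promoter peaks with H3K4me1. It was in 3.41% of distal peaks without H3K4me1, 8.57% of distal peaks with it and 3.03% of all protein-coding promoters. At least 1 of the AP-1, NF-kB and PU.1 words was present in 128 peaks (13.3%, 11.3 to 15.5%), and in 61 of 275 (22.2%, 17.7 to 27.5%) with H3K4me1. The NF-kB word, GGGANNTTCC, was at 2.38% and 2.55% (2.01% of all protein-coding promoters), which the intervals of 1.59 to 3.55% and 1.24 to 5.16% do not separate.

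Composition moved with these words. Within the 966 peaks, the AP-1 word was in 18 of 474 CpG-rich peaks (3.80%, 2.42 to 5.92%) and in 57 of 492 others (11.6%, 9.05 to 14.7%). The ETS word, CCGGAAGT, which itself holds a CpG, was in 9.28% (6.99 to 12.2%) of the CpG-rich peaks and 1.42% (0.691 to 2.91%) of the others. Over all 966 peaks it was at 5.28% (4.04 to 6.88%), against 8.36% (5.64 to 12.2%) of promoter peaks with H3K4me1 and 4.39% of all protein-coding promoters. The part of CpG content in the differences between peaks with and without H3K4me1 was not tested. The other words searched were a GC box (GGGGCGGGG, 9.11% of the 966 peaks and 11.03% of all protein-coding promoters), a CCAAT box (GCCAAT, 13.3% and 11.7%), an E-box (CACGTG, 7.87% and 7.15%), a TATA word (TATAAA, 10.8% and 11.7%), a CRE (TGACGTCA, 1.66% and 1.59%) and the words of NRF1 (GCGCATGCG, 1.97% and 1.39%) and BANP (CTCGCGAG, 1.55% and 1.09%). Each of these shares of the 966 peaks was within the interval of promoter peaks with H3K4me1.

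H3K4me1 was often close by, even though the rule kept it off the peak itself. The distance to the nearest H3K4me1 peak had a median of 1573 bp (1450 to 1742 bp) under LPS and 2311 bp (2087 to 2543 bp) under PBS. An LPS H3K4me1 peak lay within 1000 bp of 339 of the 966 peaks (35.1%, 32.1 to 38.2%), and a PBS H3K4me1 peak within 1000 bp of 216 (22.4%, 19.8 to 25.1%). Both lists had one near 132 peaks, the LPS list alone near 207, the PBS list alone near 84 and neither near 543 (56.2%). The LPS list is the longer, with 73049 peaks against 64758. Each list is 1 library, so the difference between treatments has no replicate check.

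Promoters in general had the same order of both lists. At 900 protein-coding genes with such a peak, an H3K4me1 peak lay within 1000 bp of the TSS at 33.2% under LPS and 18.9% under PBS. At all 21951 protein-coding genes the shares were 24.1% and 15.8%.

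The nearby H3K4me1 lay upstream of the peaks more often than downstream at short range. Within 1000 bp, 232 peaks (24.0%, 21.4 to 26.8%) had LPS H3K4me1 upstream, relative to the direction of transcription, and 155 (16.0%, 13.9 to 18.5%) had it downstream. Under PBS these were 148 (15.3%, 13.2 to 17.7%) and 101 (10.5%). Within 2000 bp the intervals of the sides overlapped. LPS H3K4me1 was upstream of 352 peaks (36.4%, 33.5 to 39.5%) and downstream of 356 (36.9%, 33.9 to 39.9%). PBS H3K4me1 was upstream of 250 (25.9%, 23.2 to 28.7%) and downstream of 284 (29.4%, 26.6 to 32.3%). Within 5000 bp downstream was the more frequent side, with 464 peaks upstream and 559 downstream under LPS and 366 and 510 under PBS. The median gap under LPS was 5847 bp upstream (4632 to 7660 bp) and 3137.5 bp downstream (2790 to 3704 bp). H3K4me1 flanked the peak on both sides within 2000 bp in 154 cases (15.9%, 13.8 to 18.4%) under LPS and in 97 (10.0%) under PBS.

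**Figure D4:**
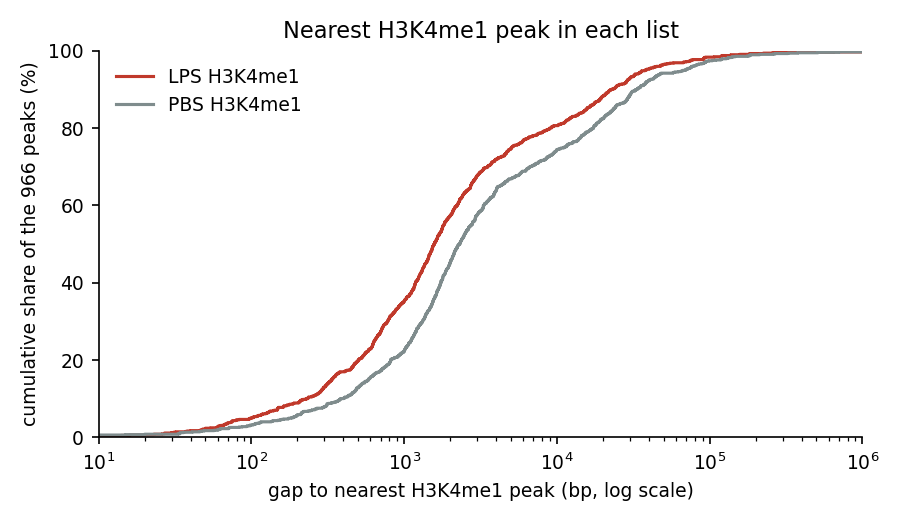
The x axis gives the distance from each of the 966 peaks to the nearest H3K4me1 peak in bp on a log scale, and the y axis the cumulative share of peaks in percent, for the LPS and the PBS H3K4me1 list. The LPS line reaches 35.1% and the PBS line 22.4% at 1000 bp, and the medians are 1573 bp and 2311 bp.

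Some peaks were close to the limits of the rule. Of the 966, 71 lay within 100 bp of an H3K4me1 peak of either list and 257 within 500 bp. Ube2r2 had an H3K4me1 peak directly beside its peak, with 0 bp between them, and the peaks at Gm22504 and Hyal3 were 3 bp from theirs. On the other side of this limit, the promoter peaks at D6Wsu163e, 1810059C17Rik and Pnrc2 shared 6, 7 and 9 bp with H3K4me1 and were therefore left out. At the limit of the promoter window, the nearest edges at A930035D04Rik, Calcrl and 5031425E22Rik were 997, 994 and 994 bp from a TSS, and those at Ptprc, Ube2f and Arih2, at 1001, 1003 and 1004 bp, fell outside. The fold enrichments of these 12 peaks ranged from 4.48 to 7.55.

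The overlap with acetylation in unstimulated cells was bounded by the short PBS H3K27ac list, which held 52 peaks in all, 17 of them at promoters and 16 of these without H3K4me1. A PBS H3K27ac peak overlapped 7 of the 966 (0.725%, 0.351 to 1.49%), and over all 4200 LPS H3K27ac peaks the share was 0.357%, or 15 peaks, so the counts are too small to set the promoter peaks apart. Seen from the PBS list, 7 of its 16 promoter peaks without H3K4me1 were overlapped by such an LPS peak. Paxip1 (LPS fold enrichment 11.5, PBS 7.50) and Fam53c (7.54 and 5.31) were the 2 of the 7 that were also among the 10 strongest. The others were at 4930413G21Rik (8.45 and 6.48), Top1, the gene of DNA topoisomerase I (7.19 and 5.56), Cltc (7.90 and 4.69), Srek1, a splicing regulator (4.99 and 6.88), and Chtop, a chromatin-associated mRNA export factor (3.99 and 6.69). The fold enrichments are each relative to their own library and control and are not compared between treatments. The PBS peak at Paxip1 covered 149 of the 151 bp of the LPS peak, whereas at Cltc it covered 164 of 707 bp. A peak missing from the PBS list may be below its threshold rather than absent.

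Genes with such a peak were counted in 20 lists of genes of known function. Of 21951 protein-coding genes, 900 had a peak of this kind within 1000 bp of the TSS, which is 4.1% of them and the background for the lists. A peak counted for every gene in reach, also where the TSS of another gene was nearer. The lists hold different kinds of genes and share some peaks, and no test was made of them. Any LPS H3K27ac peak, with or without H3K4me1, was at 1098 of the 21951 genes (5.0%). In most lists the count with any peak was close to the count given below, such as 15 of 85 splicing factors and 8 of 53 helicases. Late or interferon response genes differed, with 7 against 4. A high share is therefore not particular to peaks without H3K4me1. Splicing factors had a peak at 14 of 85 genes (16.5%, 10.1 to 25.8%), led by Prpf8 and Prpf38a, core components of the spliceosome, with fold enrichments of 9.26 and 8.49. Hnrnpul1 (6.29) and Hnrnph3 (7.36) came next, although the Hnrnph3 peak was nearer to Pbld2. DEAD and DEAH box helicases had 8 of 53 (15.1%, 7.85 to 27.1%), with Ddx54 first, then Dhx29 (9.18), Ddx3x (7.59) and Dhx58 (7.11). The Dhx29 peak was nearer to Mtrex. Translation initiation factors had 8 of 55 (14.5%, 7.56 to 26.2%), among them Eif5 (7.99), Eif3b (7.31), Eif5a (6.38) and Eif2s1 (5.49), although the Eif2s1 peak was nearer to Atp6v1d.

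Ubiquitin-conjugating enzymes had the highest share of the 20 lists, 7 of 37 (18.9%, 9.48 to 34.2%), with an interval that overlapped those of the lists above. Among them was Ube2n, which makes the K63-linked chains used in TLR signalling, at a fold enrichment of 7.43 and 21 fragments. Ube2s and Ube2r2 had fold enrichments of 6.87 and 5.97. Proteasome subunits had 5 of 39 (12.8%, 5.60 to 26.7%), all but Psma3 in the regulatory particle: Psmd14 (6.32), Psmd11 (5.49), Psmd1 (4.85) and Psmd6 (3.26). Lysosome and V-ATPase genes had 7 of 56 (12.5%, 6.19 to 23.6%), with Atp6v0c, a proton channel subunit, at 7.41 and 25 fragments, Lamp1 at 6.49, the transcription factor gene Tfe3 at 6.42 and Gla at 5.99.

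The remaining lists of basic function had lower shares. Cytosolic ribosomal proteins had 9 of 87 (10.3%, 5.54 to 18.5%), led by Rpl35a (7.49), Rpl4 (7.14), Rpl22l1 (6.77) and Rpl39 (6.63). Oxidative phosphorylation had 8 of 78 (10.3%, 5.29 to 19.0%), led by Ndufa2 (9.49), Uqcrh (6.47), Cox6b1 (6.42) and Uqcrb (6.10). The peaks counted for Ndufa2, Uqcrh and Uqcrb were nearer to Ik, Lrrc41 and Gm10767. Mitochondrial ribosomal proteins had 7 of 78 (8.97%, 4.42 to 17.4%), where 1 peak counted for both Mrps11 and Mrpl46. RNA polymerase subunits had 3 of 27, Mediator subunits 3 of 30, aminoacyl-tRNA synthetases 2 of 35, DNA repair and replication licensing 3 of 65 and replication-dependent histones 2 of 65. Zinc finger genes had 14 of 391 (3.58%, 2.14 to 5.92%), close to the background of all genes.

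Genes of the LPS response were also represented. Primary response genes had 9 of 55 (16.4%, 8.86 to 28.3%), and the 4 strongest were Ccl3, a chemokine gene (fold enrichment 6.49, 12 fragments, summit 126 bp downstream), Nfkb1, which encodes the p50 subunit of NF-kB (5.99, 14 fragments, 740 bp downstream), Sqstm1, the autophagy adaptor p62 (6.51, 11 fragments), and Rel, the c-Rel subunit (6.57, 9 fragments, 965 bp downstream). The Sqstm1 peak lay 893 bp upstream and was nearer to Mgat4b. The other 5 were Pim1, Ier2, Jun, Klf6 and Fosb, with fold enrichments from 3.74 to 5.63, and the Pim1 peak was nearer to Gm26885. A promoter peak with H3K4me1 was found at 3 genes of this list (5.45%), against 228 of all 21951 protein-coding genes (1.04%).

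Late or interferon-dependent response genes had 4 of 38 (10.5%, 4.17 to 24.1%), namely Dhx58, the ubiquitin-like modifier gene Isg15 (6.76), Ifit1, which binds foreign RNA (6.05), and Ifih1, which encodes the RNA sensor MDA5 (5.49). In this list 5 genes (13.2%) had a promoter peak with H3K4me1. Macrophage identity genes had 5 of 35 (14.3%, 6.26 to 29.4%). The signalling adaptors Fcer1g (7.49, 14 fragments) and Tyrobp (7.67, 12 fragments) were the strongest, followed by Spi1, the gene of PU.1 (5.59), the scavenger receptor gene Msr1 (5.90) and the LPS receptor gene Tlr4 (4.35, 5 fragments). None of the 35 had a promoter H3K27ac peak with H3K4me1. The list is too short to set this apart from the 1.04% of all protein-coding genes with such a peak. Genes of other tissues had 0 of 30 (upper limit 11.4%) and olfactory receptor genes 0 of 1093 (upper limit 0.350%).

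**Figure D5:**
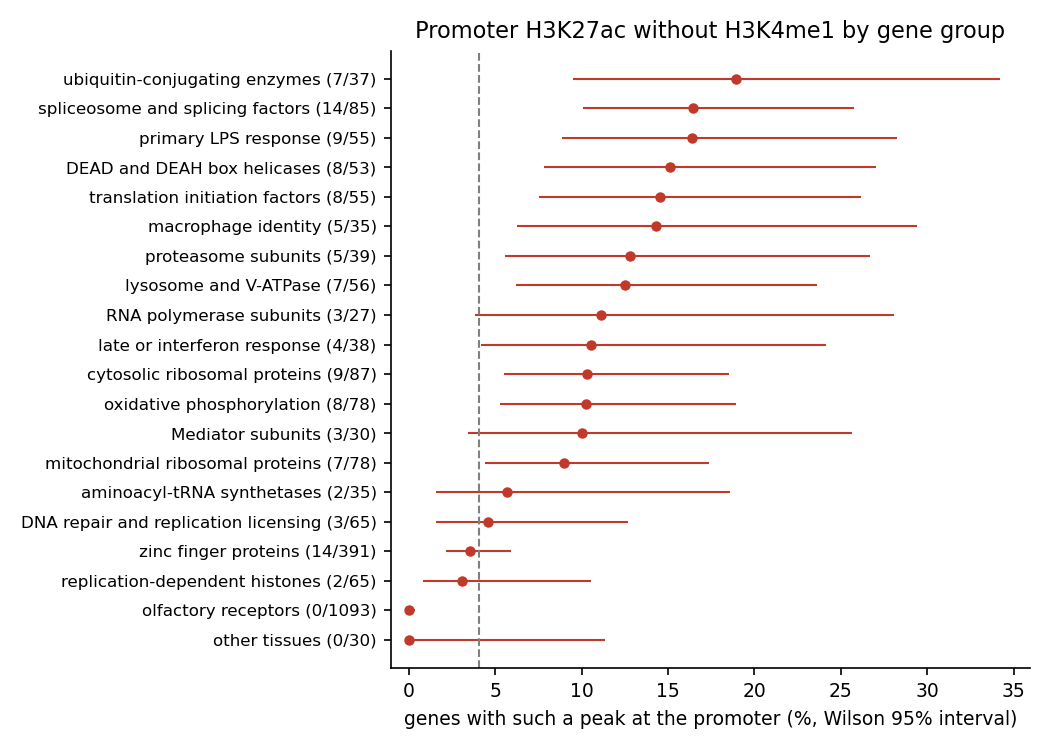
Each row is 1 of 20 gene lists, with the number of genes with such a peak and the size of the list, and the x axis gives the share of its genes with a promoter H3K27ac peak without H3K4me1 in percent, with Wilson 95% intervals. The dashed line marks the 4.1% of all protein-coding genes, and the lists run from 0 of 1093 olfactory receptor genes to 7 of 37 ubiquitin-conjugating enzymes (18.9%).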

How the data were processed

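CUT&RUN peaks were analysed for 4 libraries of BMDMs treated for 1 h with LPS or PBS. Per the labels and the methods of the study, the authors aligned reads to GRCm38 with Bowtie2 2.4.4, removed blacklisted regions and called peaks per library with MACS2 2.2.7.1. Each deposited list gives a fold enrichment and the −log10 of the p-value and q-value at the summit, all as the authors' peak caller wrote them. The fold enrichment is a ratio to the local control, with a constant added to both parts. The lists give no read totals. Whole fragments at each summit of the LPS H3K27ac library were recovered from fold enrichment and −log10 p. This gave a solution within 0.002 for 100% of its peaks, with more than 1 solution for 23. The depth of that library is an estimate. It rests on the lowest frequent control level, 0.357 fragments, a fragment length taken as 118 bp and the genome size set for the peak caller.

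TSSs were those of gene records in GENCODE M21, whereas the authors used a different release. Overlap was at least 1 bp and was checked with bedtools 2.31.1. Sequence was read from GRCm38 over 200 bp on either side of the summit. Scripts used Python 3.11.15 with pandas 2.3.3, scipy 1.17.1 and pysam 0.24.0, and were tested on simulated data. Shares have Wilson 95% intervals and medians binomial ones. With 1 library for each treatment and antibody, no test was possible.

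Members and gene lists were chosen with earlier results of these data known. Genes named were the 10 peaks with the highest −log10 q, the 5 widest, those overlapped by PBS H3K27ac, up to 4 per gene list and those nearest the limits of the rule. Genes named beyond these were chosen after their values were seen. No IgG library was analysed here by itself. Some genes that this rule names are not reported here.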

Additional observations from a re-analysis of the deposited data

How the results depend on the processing

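No paired analysis was possible because each antibody had only 1 library under either treatment, and no test was made. Of 88 alternative values, 54 stayed within their limit, 34 moved and 0 reversed direction. For shares and medians the limit was the interval of the value as reported. Counts had a wider limit, and 645 peaks in place of 966 still fell within it. Only the median summit position could reverse, by a change of sign. Counts, shares, widths and fold enrichments cannot be negative, so the absence of reversals says nothing about them. A −log10 q of at least 5 left 317 peaks, with 73.7% of promoter peaks without H3K4me1, a median summit at +119 bp, a width of 178 bp, a fold enrichment of 6.80, a CpG-rich share of 52.4% and a peak at 1.47% of protein-coding genes. A fold enrichment of at least 5 gave a width of 166 bp, a median of 5.99 and 2.82% of genes. A promoter window of 500 bp gave +119 bp, 59.5% CpG-rich and 3.05% of genes, and one of 2500 bp gave 74.9% without H3K4me1, +218.5 bp, 40.7% CpG-rich and 4.86% of genes. With the TSSs of all transcripts these were 75.4% without H3K4me1, +94 bp and 43.2% CpG-rich, and with protein-coding TSSs alone 80.9% and +198 bp. The definition of H3K4me1 absence moved the share most. It was 57.1% when no H3K4me1 peak was allowed within 500 bp (with LPS H3K4me1 within 1000 bp at 18.1% and 2.99% of genes), 82.0% when only the LPS H3K4me1 list was used, and 85.4%, with 4.48% of genes, when H3K4me1 peaks needed a −log10 q of at least 5. Within 100 bp of the summit the shares with a word were by construction lower, at 1.55% for ETS, 1.76% for YY1, 3.73% for AP-1, 2.69% for ISRE and 1.45% for PU.1, and 45.7% were CpG-rich. Summits remained downstream of the TSS in the median under each of these settings. Depth limits the order of peaks, since the median summit had 11 fragments, and the 52 peaks of the PBS H3K27ac list limit any statement on peaks gained with LPS.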

Other observations

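The 12 strongest peaks that were not CpG-rich included those at the interferon-inducible genes Casp4, Mx2, Ifitm3, Parp14 and Irgm1. The others of the 12 were at Asna1, 4932422M17Rik, Ppp2r3c, Gm26887, Tnfrsf1a, Rny1 and Rilpl2. The genes below were chosen after their values were seen, and whether such genes were more frequent here than among CpG-rich peaks was not tested. Parp14, an ADP-ribosyltransferase, had 2 peaks, with fold enrichments of 10.3 and 7.26, 19 and 11 fragments, and summits 1019 bp downstream and 74 bp upstream of the TSS. Irgm1, an immunity-related GTPase, also had 2 peaks, with fold enrichments of 9.34 and 4.99. Samd9l and Casp1, the caspase that matures interleukin-1 beta, both had 8.84 with 11 fragments, and their summits lay 793 and 852 bp downstream. Oasl2 and Herc6 both had 7.49 with 14 fragments. The observed to expected CpG ratio was 0.116 and 0.344 at the Parp14 peaks, 0.430 at the stronger Irgm1 peak, 0.0602 at Samd9l and 0.133 at Casp1, against a limit of 0.6 for CpG-rich sequence. Parp9 differed from these, with a fold enrichment of 7.25 and a CpG ratio of 0.702.

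Small RNA genes were nearest to some of the peaks. Rny1, which encodes a Y RNA, had a peak with a fold enrichment of 9.58 and 12 fragments whose summit lay 343 bp upstream of its TSS, and Mir21a, a microRNA induced in macrophages by LPS, had one with 6.49 and 9 fragments at 469 bp upstream. The peaks at Rnu11, the U11 spliceosomal RNA, and Snord13 had fold enrichments of 5.73 and 6.39, and their summits lay 117 and 107 bp upstream. Genes of near-identical copies can share reads, and whether this affected these values was not tested.

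Chromosomes differed in the share of protein-coding genes with such a peak. It was highest on chromosome 11, at 5.92% (97 of 1639 genes), followed by chromosome 12 at 5.44%. Apart from the Y chromosome it was lowest on the X chromosome, at 2.53% (24 of 948), against 4.1% over all. The cells came from male mice, and no test was made of these differences. The Y chromosome had 1 peak, at Kdm5d, with a fold enrichment of 7.37 and 9 fragments.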
